A study of Mus musculus with 4 samples.

Results

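The genes described here are the cholinergic fate genes of the basal forebrain, taken by symbol from transcript abundances of neurons made in culture from mouse embryonic stem (ES) cells. The 8 genes are the transcription factors Lhx8, Isl1, Gbx1 and Gbx2, and Chat, Slc18a3, Slc5a7 and Ache of the acetylcholine pathway. All 8 were found among the 34968 symbols that the 4 libraries share. Levels are TPM, abundances scaled by transcript length and by the total of the library, so that levels of different genes can be set side by side. Of the 8 genes, 6 passed the filter for testing, at least 1 TPM in at least 2 libraries, as did 12975 genes in all. Chat and Slc5a7 did not pass it.

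The parental ES line came from a male pre-implantation embryo carrying Dlx6a-Cre, which acts in GABAergic forebrain neurons, and the Ai9 reporter, which turns on the red protein tdTomato after Cre has acted. Its strain is given as C57/BL6. All cells carried a transgene in which the Nestin promoter, active in neural progenitors, drives Nkx2-1 and the activator tTA2S. The N/D line also carried TRE-Dlx2, and the N/D/S line TRE-Dlx2-St18, in which the activator turns on Dlx2 alone or Dlx2 with St18. Lines were grown from selected clones, and how many clones stand behind the libraries is not given in the sources used here. Each line was differentiated for 12 days as embryoid bodies with the Wnt inhibitor XAV-939 and then the Sonic hedgehog agonist SAG. Cells positive for tdTomato were sorted, and poly-A RNA was sequenced. Each line gave 2 libraries, numbered replicate 1 and replicate 2. Nothing says that they came from separate cultures, so the p-values measure the spread between these libraries, which may be technical. The question here is whether genes of the cholinergic fate differ between neurons with and without added St18.

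Cholinergic neurons of the basal forebrain arise, with pallidal projection neurons and interneurons, from Nkx2-1 progenitors of the medial ganglionic eminence (MGE). LHX8 and ISL1 are LIM-homeodomain proteins that join in a complex on the adaptor LDB1 and drive the cholinergic program, while GBX1 and GBX2 are homeodomain proteins made in cholinergic lineages of the ventral forebrain. A cholinergic neuron takes up choline through SLC5A7, makes acetylcholine with CHAT, loads it into vesicles through SLC18A3, and breaks the released transmitter down with ACHE.

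The sorted cells had neuronal RNA in every library. All 7 neuronal and all 6 GABAergic markers were at 1 TPM or more in each of the 4 libraries. St18, which the transgene of N/D/S adds, did not separate the lines. The libraries labelled N/D had 28.5 TPM and 26.6 TPM of St18 and those labelled N/D/S 44.4 TPM and 15.9 TPM, and whether these values include reads of the transgene is not given in the sources used here. The lines are named as labelled. The library labelled N/D replicate 1 stood apart, with 13426 genes above 0 against 17118 to 20750 in the others. Among 6139 genes that reached 10 TPM in all of the others, 613 were listed at 0 in it, against at most 2 such genes for any other library. Read counts cannot be had from TPM, and library depth is therefore unknown.

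The fate factors were present and the enzyme that defines the cholinergic transmitter was close to 0. Over the 4 libraries, with values listed at 0 kept as 0, mean levels ran from Lhx8 at 124 TPM through Ache at 79.4 TPM, Isl1 at 59.0 TPM and Gbx2 at 25.2 TPM to Gbx1 at 5.01 TPM and Slc18a3 at 3.65 TPM, and then to Chat at 0.139 TPM and Slc5a7 at 0.106 TPM. The values of each gene overlapped those of the next in this order, so that no neighbours were separated beyond their spread. Lhx8 was above Ache in 3 of 4 libraries and Ache above Isl1 in 2 of 4. Lhx8, Isl1, Gbx2 and Ache were at 1 TPM or more in all 4 libraries, as were 54% of tested genes. In bulk RNA, fewer cholinergic cells and less RNA of a gene in each cell cannot be told apart.

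**Figure D1:**
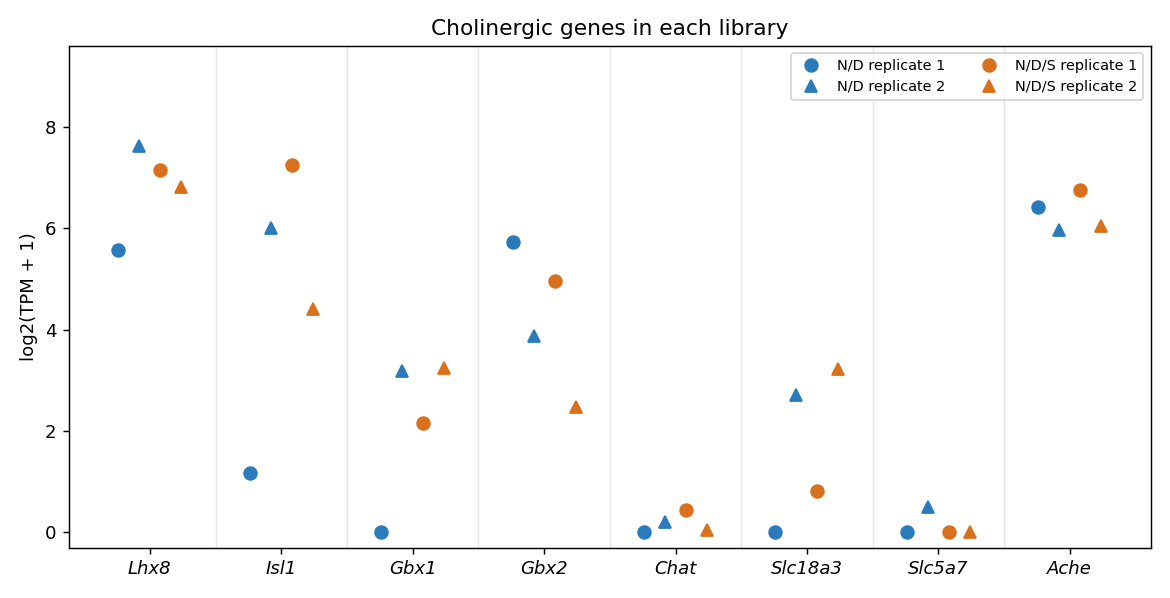
Levels of the 8 cholinergic fate genes in each library, as log2(TPM + 1). Blue marks N/D and orange N/D/S, circles replicate 1 and triangles replicate 2. Chat and Slc5a7 lie near 0 in all 4 libraries, whereas Isl1 spreads from 1.26 TPM to 151 TPM.

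Lhx8 (GRCm38 chr3:154306294-154330659, minus strand) was among the more abundant genes of every library. It was at 46.9 TPM in N/D replicate 1 and 197 TPM in N/D replicate 2, and at 141 TPM in N/D/S replicate 1 and 112 TPM in N/D/S replicate 2. Both N/D/S values lay between the N/D values, and at least 91.2% of the shared symbols had a lower value in each library. The highest level was 4.19 times the lowest, a range on the log2 scale that was larger than that of 48.7% of tested genes. Lhx8 was above Lhx6, the MGE factor of interneurons and pallidal neurons, in all 4 libraries, at 1.23 to 3.39 times its level. Lhx8 was 2.84 to 6.13 times as abundant as Nkx2-1. The transgene in all cells also drives Nkx2-1, and whether its reads are in these values is not given in the sources used here.

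Isl1 (chr13:116298281-116309689, minus strand), which is also used by striatal and motor neurons, varied most of the 6 tested genes. Its level was 1.26 TPM in N/D replicate 1, 63.2 TPM in N/D replicate 2, 151 TPM in N/D/S replicate 1 and 20.3 TPM in N/D/S replicate 2. The highest and the lowest library differed by 120.4-fold, a range larger than that of 99.0% of tested genes. The high value of each line was in a different replicate number, and the lines overlapped. Within replicate 1, the ratio of Isl1 to Lhx8 was 0.0268 in the N/D library and 1.07 in the N/D/S library. Within replicate 2 it was 0.321 and 0.181. The RNA levels of Isl1 and Lhx8 were close to equal in N/D/S replicate 1 and unequal in the others, and protein was not measured here. In the library labelled N/D replicate 1, 11.0% of 2758 genes that had like levels in the other libraries (within 2-fold of the mean of Isl1 there) were as low as Isl1 or lower.

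The GBX genes took opposite courses over the libraries. Gbx1 was listed at 0 in N/D replicate 1 and was at 8.11 TPM in N/D replicate 2, 3.47 TPM in N/D/S replicate 1 and 8.45 TPM in N/D/S replicate 2. Gbx2 was at 52.2 TPM in N/D replicate 1, 13.8 TPM in N/D replicate 2, 30.2 TPM in N/D/S replicate 1 and 4.54 TPM in N/D/S replicate 2. Both replicate 2 libraries were above both replicate 1 libraries for Gbx1 and below them for Gbx2. Gbx2 was above Gbx1 in 3 of 4 libraries and below it in N/D/S replicate 2. Relative to Lhx8, Gbx2 went from 1.11 times its level in N/D replicate 1 to 0.0405 times in N/D/S replicate 2. The 0 of Gbx1 in N/D replicate 1 was shared by 39.8% of 3568 genes of like level in the other libraries. Gbx1 lies at chr5:24502757-24527202 and Gbx2 at chr1:89927956-89931179, both on the minus strand. Gbx2 shares 946 exon bases with the antisense transcript D130058E05Rik. Whether strand was used in counting is not stated, so reads within those bases cannot be told apart.

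Chat and Slc18a3 form the cholinergic locus, in which the vesicle transporter gene lies inside the synthesis gene. In GENCODE M21 on GRCm38, Chat runs over chr14:32408203-32465989 on the minus strand. Slc18a3, a gene of 1 exon, covers chr14:32462438-32464850 on the same strand, within the first intron of 4 of the 8 Chat transcripts. The genes share 0 exon bases in that annotation. Their start sites are 1059 bases apart in RefSeq. The stretches just upstream of each start are shown because the genes share a locus, and Slc18a3 was above Chat in 3 of 4 libraries while both were at 0 in the other. They are from RefSeq on GRCm38.p6, read 5′ to 3′ on the minus strand. For Chat the stretch is chr14:32465990-32466159, from 250 to 81 bases before the start, kept clear of annotated exons. For Slc18a3 it is chr14:32464851-32465100, the 250 bases before the start, where an exon of the antisense noncoding RNA Gm2990 also lies. Capitals mark CAAGTG.
Chat upstream: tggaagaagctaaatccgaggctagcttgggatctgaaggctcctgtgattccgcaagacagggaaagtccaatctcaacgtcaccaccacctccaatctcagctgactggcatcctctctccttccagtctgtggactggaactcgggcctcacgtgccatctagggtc
Slc18a3 upstream: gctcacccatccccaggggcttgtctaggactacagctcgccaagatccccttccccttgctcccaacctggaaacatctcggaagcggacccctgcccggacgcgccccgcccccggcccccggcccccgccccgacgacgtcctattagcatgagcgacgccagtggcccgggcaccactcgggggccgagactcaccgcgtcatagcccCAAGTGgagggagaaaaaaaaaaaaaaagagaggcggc

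Both strands were searched for CAAGTG, the core of sites bound by NKX2-1, for TAATTA, a core bound by homeodomain proteins, with the shorter TAAT that it contains, and for TGACGTCA, the cyclic AMP response element. The Chat stretch held none of these. The Slc18a3 stretch held 1 CAAGTG, beginning 38 bases before the start, and 1 TAAT, and neither TAATTA nor TGACGTCA. CAAGTG occurs in 11.6% of all mouse promoter stretches of 250 bases and in 8.50% of those of 170 bases at the same distance. TAAT occurs in 54.9% and 46.4% of them, TAATTA in 4.84% and 3.66%, and TGACGTCA in 1.55% and 0.493%. A match is a description of the letters and not a site. GC content was 66.0% for the Slc18a3 stretch and 54.7% for the Chat stretch. Of the 8 genes, 7 were matched in the promoter table used here.

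Slc18a3 was at a higher level than Chat wherever it was above 0. Slc18a3 was listed at 0 in N/D replicate 1 and was at 5.53 TPM in N/D replicate 2, 0.752 TPM in N/D/S replicate 1 and 8.30 TPM in N/D/S replicate 2. Chat was listed at 0 in N/D replicate 1, and was at 0.162 TPM in N/D replicate 2, 0.361 TPM in N/D/S replicate 1 and 0.0335 TPM in N/D/S replicate 2. The genes did not share an order of libraries, since Slc18a3 was highest and Chat lowest of its values above 0 in N/D/S replicate 2. Chat was under 1 TPM in all 4 libraries. Of 3259 genes with levels like that of Slc18a3 in the other libraries, 44.2% were also at 0 in N/D replicate 1, and for Chat the share was 59.4% of 2881 genes. Among tested genes, 26.1% were at 0 in that library, and Gbx1 and Slc18a3 were the tested cholinergic genes among them.

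Slc5a7 (chr17:54273590-54299034, minus strand), the choline transporter of cholinergic endings, was listed at 0 in N/D replicate 1 and N/D/S replicate 2. It was at 0.416 TPM in N/D replicate 2 and 0.00980 TPM in N/D/S replicate 1, so it was under 1 TPM in all 4 libraries. Ache (chr5:137287519-137294466, plus strand), which many neurons make besides cholinergic ones, was at 84.4 TPM in N/D replicate 1, 61.2 TPM in N/D replicate 2, 107 TPM in N/D/S replicate 1 and 65.4 TPM in N/D/S replicate 2. It was the steadiest of the 6 tested genes, with a highest level 1.74 times the lowest, and 9.36% of tested genes had a smaller range. Ache was therefore above Slc18a3, Chat and Slc5a7 in every library. It shares 98 exon bases with the lincRNA Gm42456 on the opposite strand.

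None of the 6 tested genes separated the lines. With limma on log2(TPM + 1) and Benjamini-Hochberg adjustment, 0 of 6 were higher and 0 of 6 lower in the libraries labelled N/D/S at an adjusted p under 0.05, as were 0% of all tested genes in each direction. At an unadjusted p under 0.05 the count was also 0 of 6, against 0.0231% of tested genes (3 genes) higher and 0.0385% (5 genes) lower. The libraries labelled N/D/S were both above both labelled N/D for 0 of 6 genes and 8.69% of tested genes, and both below for 0 of 6 and 8.23%. With 2 libraries against 2, an exact permutation test of a single gene cannot give a two-sided p below 0.333.

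The intervals were wide. On the log2(TPM + 1) scale, which understates differences of low genes, Isl1 had the largest difference of N/D/S minus N/D at 2.24 (SE 1.77, n = 2 libraries a line), with a 95% interval from −1.95 to 6.43 (limma, Benjamini-Hochberg adjusted p = 1.0). The difference was 1.11 for Gbx1 (SE 1.31, interval −1.99 to 4.20) and −1.09 for Gbx2 (SE 1.26, interval −4.08 to 1.89). For Slc18a3 it was 0.66 (SE 1.36, interval −2.55 to 3.87), for Lhx8 0.38 (SE 1.10, interval −2.22 to 2.99), and for Ache 0.21 (SE 0.98, interval −2.10 to 2.53), with limma adjusted p = 1.0 for each. The median of the 6 differences was 0.52, and that of all tested genes was 0.26. Every interval holds 0 and spans at least 1.89 on the higher side and −1.95 on the lower side, so these libraries do not show that the levels are alike.

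**Figure D2:**
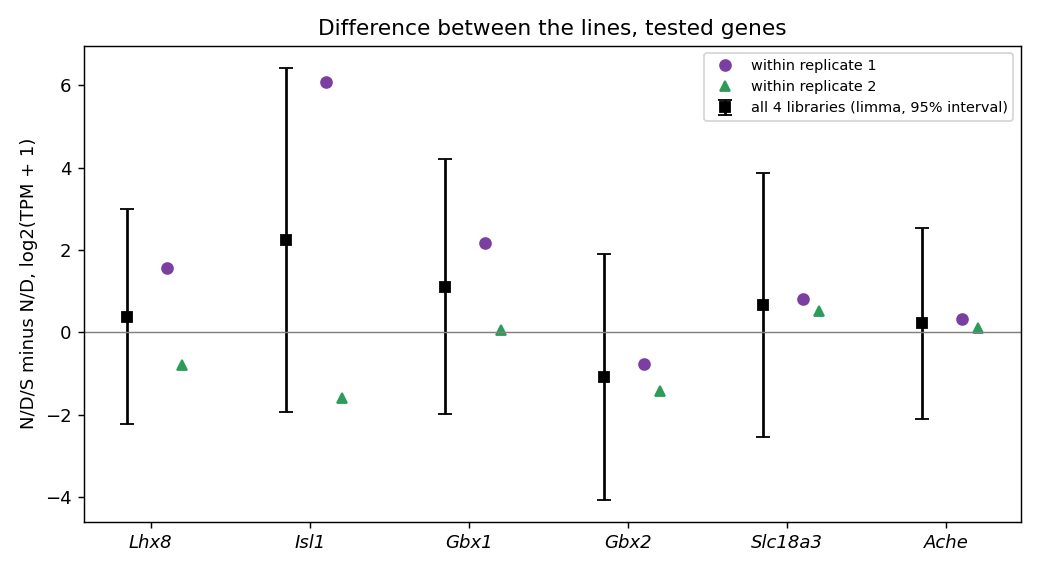
Difference between the lines for the 6 tested genes, as N/D/S minus N/D on the log2(TPM + 1) scale. Black squares and bars give the fit over all 4 libraries with its 95% interval, purple circles the difference within replicate 1 and green triangles that within replicate 2. Lhx8 and Isl1 have opposite signs in the replicate numbers.

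The differences within each replicate number did not all point the same way. For Lhx8, N/D/S minus N/D was 1.57 within replicate 1 and −0.81 within replicate 2. For Isl1 it was 6.08 within replicate 1 and −1.59 within replicate 2, the widest disagreement of the 6. The signs were opposite, in either direction, for 65.6% of tested genes. The libraries labelled N/D/S were higher within both numbers for Gbx1 (2.16 and 0.05), Slc18a3 (0.81 and 0.51) and Ache (0.33 and 0.09), as for 15.9% of tested genes, and lower within both for Gbx2 (−0.77 and −1.42), as for 17.9%.

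The library labelled N/D replicate 1 bore on most of these values. It was the lowest library for 4 of 6 genes (Lhx8, Isl1, Gbx1 and Slc18a3), as it was for 56.3% of tested genes. Without it, the differences of these 4 turned to −0.64 for Lhx8, −0.17 for Isl1, −0.49 for Gbx1 and −0.69 for Slc18a3. Against N/D replicate 2 alone, both libraries labelled N/D/S were higher for Ache, as for 13.3% of tested genes, and lower for Lhx8, as for 31.9%. Without N/D replicate 2, Isl1 differed by 4.66 (limma, Benjamini-Hochberg adjusted p = 0.00116), and 2213 genes were called higher and 160 lower, where N/D replicate 1 alone stands for its line and is assumed to vary like the N/D/S pair.

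Between the replicate numbers, which also go with the list of symbols in a file, 4 of 6 tested genes did not overlap. This too is 2 libraries against 2, where an exact two-sided permutation p cannot be below 0.333, so the counts are descriptions only. Both replicate 2 libraries were above both replicate 1 libraries for Gbx1 and Slc18a3, 2 of 6 genes against 14.7% of tested genes. They were below for Gbx2 and Ache, 2 of 6 against 14.8%. Without N/D replicate 1, Gbx1 and Slc18a3 were still higher in replicate 2, as were 20.1% of tested genes, and Isl1, Gbx2 and Ache were lower, as were 49.6%. On the log2 scale, the mean of replicate 2 minus that of replicate 1 was 2.56 for Slc18a3, 2.13 for Gbx1, −2.17 for Gbx2 and −0.58 for Ache. Lhx8 and Isl1 overlapped between the numbers when all 4 libraries were used.

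Markers of several other cell types differed between the replicate numbers too. For comparison, 14.7% of all tested genes were higher in both replicate 2 libraries and 14.8% were lower in both. All 4 pluripotency markers were higher in both replicate 2 libraries, where their summed level was 184 TPM and 291 TPM, against 0.247 TPM and 3.50 TPM in replicate 1. Of the 6 markers of astrocytes and oligodendrocytes, 5 were higher in both replicate 2 libraries, with sums of 111 TPM and 54.2 TPM against 0 TPM and 6.64 TPM. Of the 4 mesenchymal markers, 2 were higher in both, and the 4 summed to 33.0 TPM and 21.0 TPM in replicate 2 and to 0.0431 TPM and 7.71 TPM in replicate 1. Of the 5 glutamatergic markers, 2 (Slc17a6 and Neurod6) were lower in both replicate 2 libraries, Slc17a7 and Tbr1 overlapped, and Emx1 was at 0 in all 4. Their sum, most of it Slc17a6, was 17.3 TPM and 19.0 TPM in replicate 1 and 3.17 TPM and 1.27 TPM in replicate 2. Of the 7 neuronal markers, 2 (Stmn2 and Elavl4) were lower in both replicate 2 libraries, and the others overlapped. Among 6 GABAergic markers, 1 (Gad2) was lower in both, near the 14.8% of all tested genes, and the others overlapped. The neuronal sum, most of it Tubb3 and Stmn2, was 4402 TPM and 4964 TPM in replicate 1 and 3242 TPM and 3351 TPM in replicate 2. Gbx1 and Slc18a3 were thus higher where the pluripotency and glial sums were higher. Gbx2 and Ache were higher where the sums led by Slc17a6 and by Tubb3 and Stmn2 were, although most markers of those sets overlapped or were at 0. The part of these cells in the levels was not tested.

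**Figure D3:**
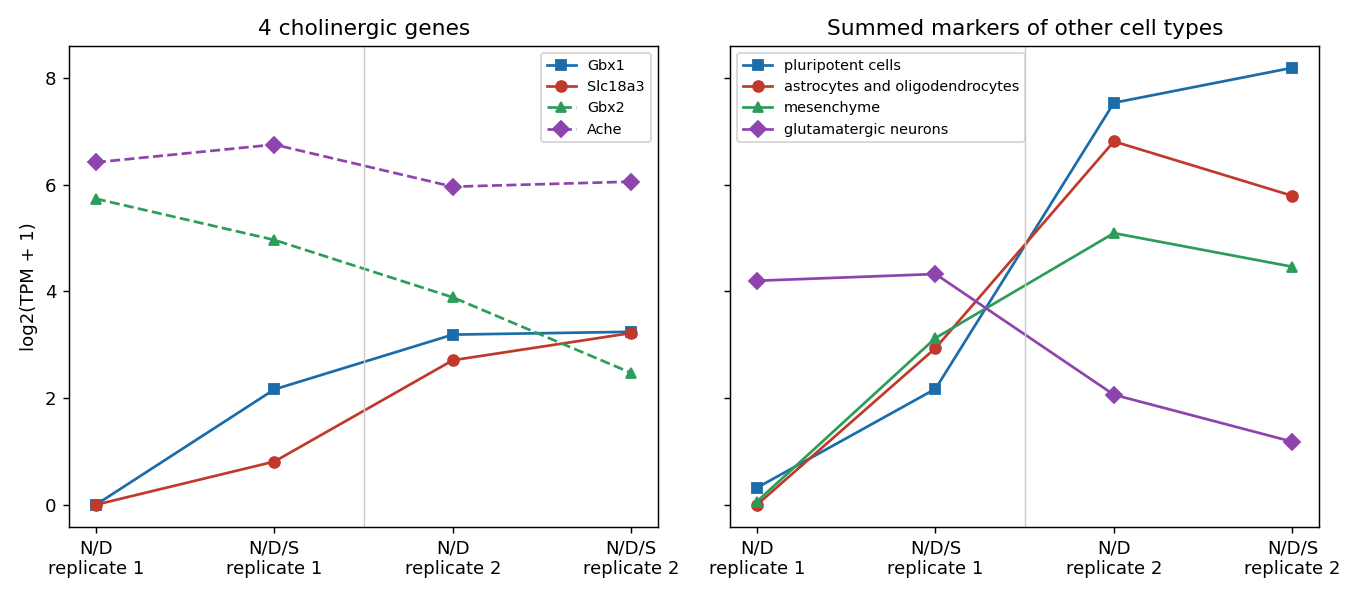
Left, levels of Gbx1, Slc18a3, Gbx2 and Ache, and right, summed levels of markers of other cell types, both as log2(TPM + 1), with the replicate 1 libraries to the left of each grey line and replicate 2 to the right. Lines join the values of 1 gene or sum and show no order of the libraries. Gbx1 and Slc18a3 are higher in replicate 2, as are the pluripotency, glial and mesenchymal sums, and Gbx2, Ache and the glutamatergic sum are lower.

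Receptors for acetylcholine were mostly low. Of 21 subunits and muscarinic receptors, 6 passed the filter, and limma with Benjamini-Hochberg adjustment called 0 higher and 0 lower. In this list and in the lists of accessory genes, LIM paralogs, LIM cofactors and other cholinergic markers, 0 genes had an unadjusted p under 0.05. The median difference of N/D/S minus N/D was 0.08 for the 6 receptors, and it went from −0.37 without N/D/S replicate 1 to 0.70 without N/D/S replicate 2, changing sign. The highest were the nicotinic subunits of the main brain receptor and a ganglionic type. Chrna4 was at 39.2 TPM in N/D replicate 1, 20.0 TPM in N/D replicate 2, 46.5 TPM in N/D/S replicate 1 and 17.1 TPM in N/D/S replicate 2. Chrnb2, its partner, was at 6.22 TPM, 14.1 TPM, 15.9 TPM and 8.98 TPM in the same order. Chrna3, the ganglionic subunit, was at 20.3 TPM, 0.896 TPM and 11.2 TPM and was listed at 0 in N/D/S replicate 2.

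Chrna4, Chrna3 and Chrnb4 (22.5 TPM, 0.463 TPM, 3.07 TPM and 0.0295 TPM) (values in the same order) were lower in both replicate 2 libraries, like Gbx2 and Ache, 3 of 6 tested receptors against 14.8% of tested genes. Chrna1, a muscle subunit and 1 of 6 against 14.7%, was higher in them, at 1.22 TPM and 1.71 TPM against 0.162 TPM and 0.166 TPM. Chrna7 was the 1 of 6 tested receptors whose lines did not overlap, where 8.69% of tested genes lay above and 8.23% below. It was listed at 0 in N/D replicate 1, and was at 1.60 TPM in N/D replicate 2, 4.09 TPM in N/D/S replicate 1 and 3.08 TPM in N/D/S replicate 2 (difference 1.50, SE 1.03, limma adjusted p = 1.0). Among receptors that did not pass the filter, Chrna5 reached 8.02 TPM in N/D/S replicate 1 and was under 1 TPM in the others. Chrnb1 reached 1.13 TPM in N/D replicate 2, Chrne 1.21 TPM in N/D/S replicate 2, and the muscarinic Chrm2 and Chrm3 1.39 TPM and 1.26 TPM in N/D/S replicate 1, and each of these was listed at 0 in at least 1 other library.

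Genes that supply choline or help the receptor and the esterase were the next list. Of 14 such genes, 9 passed the filter, as did 12975 of all 34968 symbols, limma with Benjamini-Hochberg adjustment called 0 higher and 0 lower, and their median difference was −0.23, which became −0.999 without N/D/S replicate 1 but turned to 0.12 when N/D replicate 2, and to 0.45 when N/D/S replicate 2, was left out. Tmem35a, the chaperone known as NACHO, was at 73.6 TPM, 95.8 TPM, 84.7 TPM and 57.7 TPM in N/D replicates 1 and 2 and N/D/S replicates 1 and 2. The choline kinases were at 32.4 to 61.2 TPM for Chkb and at 13.1 to 42.1 TPM for Chka, with the lines overlapping. These genes, like Ache, are used well beyond cholinergic neurons. Ric3, another receptor chaperone, and Slc44a5, a choline transporter-like gene, were lower in both libraries labelled N/D/S, at 15.4 TPM and 7.85 TPM against 41.1 TPM and 15.7 TPM for Ric3 and at 7.83 TPM and 2.14 TPM against 8.70 TPM and 8.59 TPM for Slc44a5. These were 2 of 9 tested genes, against 8.23% of all tested genes. Neither passed the test, with differences of −1.14 (SE 1.05) and −0.87 (SE 1.03) and limma adjusted p = 1.0.

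Of the genes in this group at 0 in some library, Pcyt1a was at 0 in N/D replicate 1 and at 10.7 to 21.6 TPM in the others, and Slc44a1 was at 0 in N/D replicate 1 and at 0.0893 to 3.74 TPM in the others. Prima1, which anchors the esterase in the membrane, was at 0 in N/D/S replicate 2 and at 0.860 to 2.67 TPM in the others. Bche, Colq, Slc44a3, Slc44a4 and Lynx1 were under 1 TPM in all 4 libraries.

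**Figure D4:**
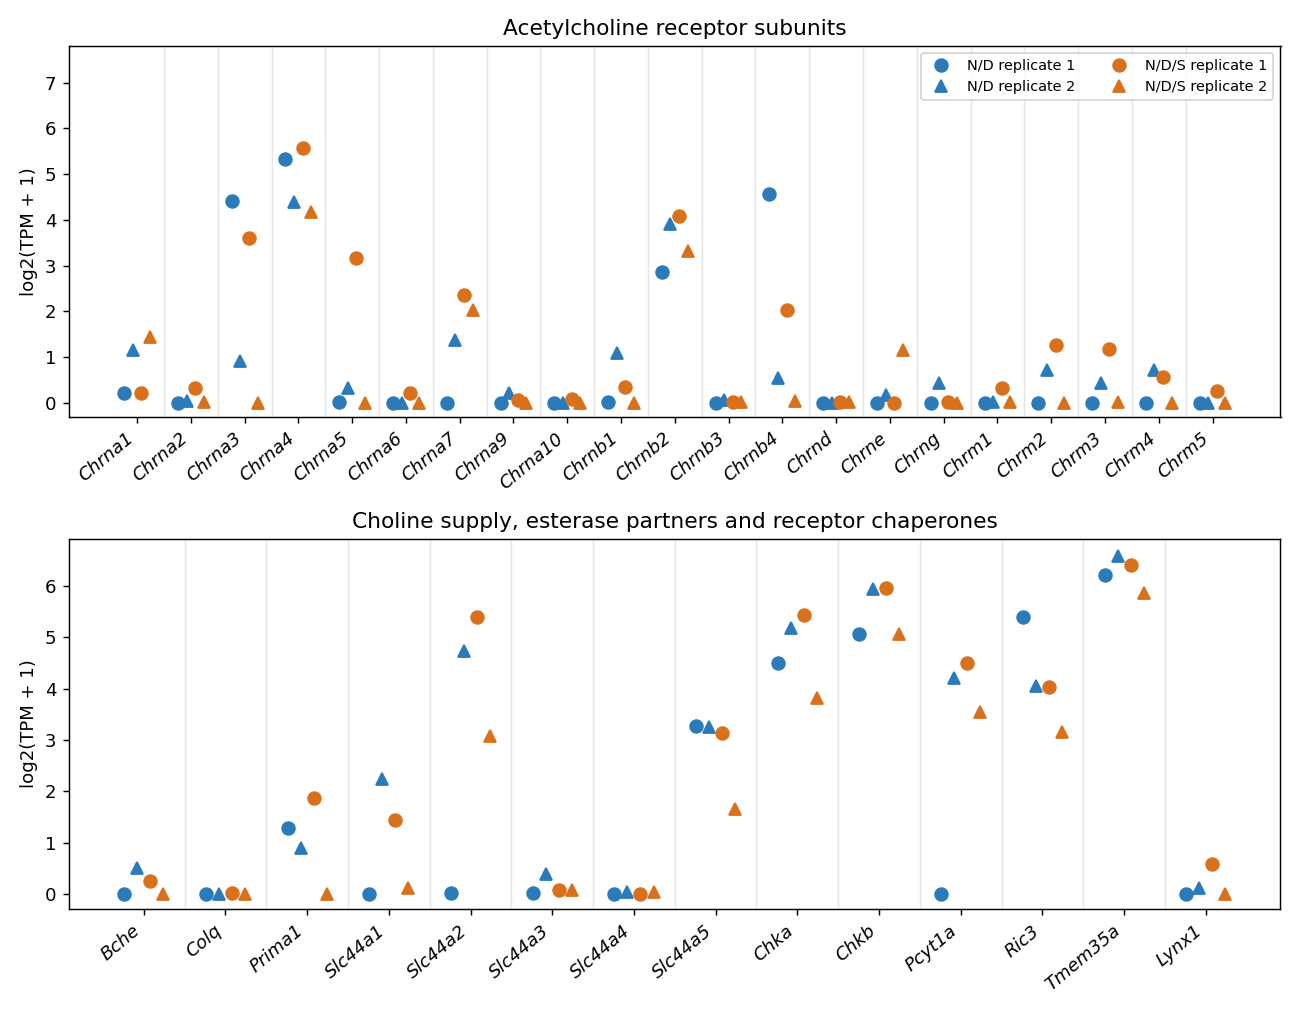
Levels of 21 acetylcholine receptor genes (top) and 14 genes of choline supply, esterase partners and receptor chaperones (bottom) in each library, as log2(TPM + 1). Blue marks N/D and orange N/D/S, circles replicate 1 and triangles replicate 2. Chrna4 and Chrnb2 are well above 0 in all 4 libraries and most other receptors lie near 0.

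The paralogs of Lhx8 and Isl1 set their levels among LIM-homeodomain factors. Lhx8 had the highest mean of the 12, followed by Lhx6 at 63.4 TPM, Isl1, and Lhx1 at 43.4 TPM. Of the 10 paralogs, 7 were tested, limma with Benjamini-Hochberg adjustment called 0 higher and 0 lower, and the median difference was −0.51. Lhx6 was at 30.8 TPM in N/D replicate 1, 74.9 TPM in N/D replicate 2, 115 TPM in N/D/S replicate 1 and 33.0 TPM in N/D/S replicate 2, so that, like Isl1, it was highest in N/D/S replicate 1. Lhx5 was at 45.0 TPM and 36.0 TPM in replicate 1 and 5.59 TPM and 7.78 TPM in replicate 2, for N/D and N/D/S in turn. Lhx4, a motor neuron factor, was at 27.7 TPM and 2.50 TPM in replicate 1 and 1.54 TPM and 0.109 TPM in replicate 2. These were the 2 of 7 tested paralogs that did not overlap between the replicate numbers, where 14.7% of tested genes lay above and 14.8% below, and both were lower in replicate 2, like Gbx2.

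Lmx1b was the 1 of 7 tested paralogs whose lines did not overlap, against the same shares of tested genes as for Chrna7, with N/D values of 4.30 TPM and 2.35 TPM and N/D/S values of 1.13 TPM and 0.259 TPM (difference −1.36, SE 0.99, limma adjusted p = 1.0). Lhx2 and Lmx1a were at 0 in N/D replicate 1, where Gbx1 and Slc18a3 were too, and at 1.97 to 4.97 TPM and 1.04 to 10.4 TPM in the others. Lhx3 and Isl2, which act in motor neurons, were at 2.39 TPM and 1.19 TPM in N/D/S replicate 1 and under 1 TPM elsewhere.

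The cofactors of LIM proteins were above 0 in all 4 libraries. All 8 were tested, limma with Benjamini-Hochberg adjustment called 0 higher and 0 lower, and the median difference was 0.08. Ldb1, the adaptor that joins LHX8 and ISL1, was at 51.8 TPM, 88.1 TPM, 124 TPM and 80.4 TPM in N/D replicates 1 and 2 and N/D/S replicates 1 and 2. Ssbp3 and Ssbp2, which stabilize it, were at 118 to 367 TPM and 125 to 198 TPM. Ldb2 was the exception among them, at 0.0351 TPM in N/D replicate 1 and 8.09 to 22.6 TPM in the others. It was the 1 of 8 cofactors higher in both replicate 2 libraries, against 14.7% of tested genes. Of the LMO proteins, which compete for LDB1, Lmo3 was at 98.1 TPM, 65.7 TPM, 151 TPM and 21.1 TPM in the same order. Lmo1, Lmo2 and Lmo3, 3 of 8 cofactors against 14.8% of tested genes, were each lower in both replicate 2 libraries.

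**Figure D5:**
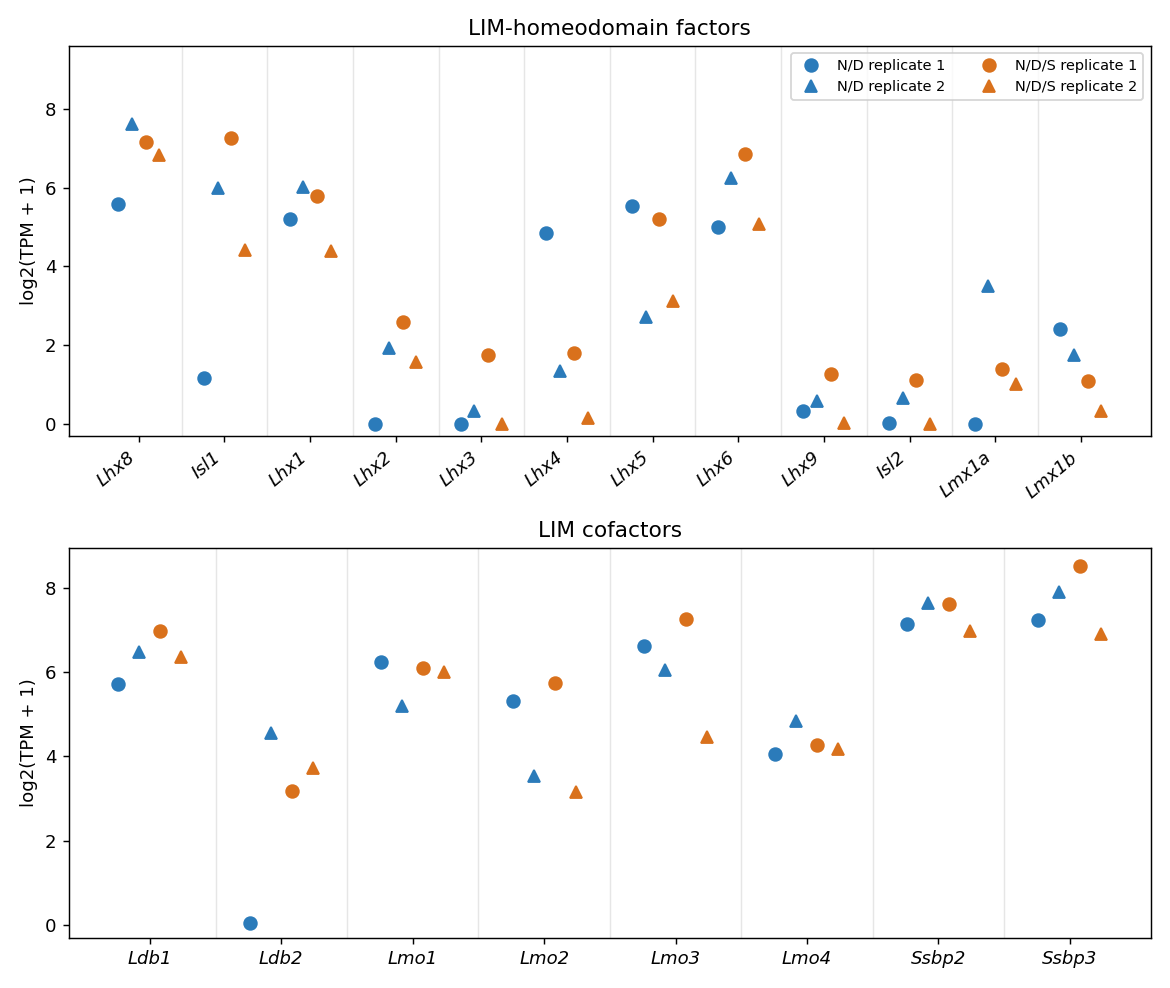
Levels of Lhx8, Isl1 and 10 paralogs (top) and of 8 LIM cofactors (bottom) in each library, as log2(TPM + 1). Blue marks N/D and orange N/D/S, circles replicate 1 and triangles replicate 2. Isl1 is far lower in N/D replicate 1 than in the other libraries, as is Ldb2, whereas Lhx8, Lhx6 and Ldb1 are well above 0 in all 4.

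Other genes that mark basal forebrain cholinergic neurons were low or uneven. Ngfr, the low-affinity neurotrophin receptor, was at 8.09 TPM and 7.01 TPM in the replicate 1 libraries and lower, at 3.23 TPM and 1.51 TPM, in those of replicate 2, for N/D and N/D/S in turn. Nkx2-1, which the transgene in all cells also drives, was at 16.5 to 48.6 TPM. Ntrk2 was at 0.142 TPM in N/D replicate 1 and 13.4 to 30.0 TPM in the others. Zic1, Zic4 and Fgf8, genes of the septum and its surroundings, were higher in both replicate 2 libraries, 3 of 7 genes against 14.7% of tested genes, while Ngfr was the 1 of 7 that was lower, against 14.8%. Zic4 and Fgf8 were at 0 in N/D replicate 1. Zic4 was at 19.8 TPM in N/D replicate 2 and at 0.423 TPM and 9.86 TPM in N/D/S replicates 1 and 2, and Fgf8 at 4.70 TPM, 0.0771 TPM and 2.87 TPM in the same order. All 7 genes of this list were tested, limma with Benjamini-Hochberg adjustment called 0 higher and 0 lower, and the median difference was −0.21.

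The genes whose levels were most like each cholinergic gene were found by the root mean square difference in log2(TPM + 1) over the 4 libraries. The nearest to Lhx8 included Slc35b1 at 0.07 and Gprasp2 at 0.16, and 92 genes in all lay within 0.5. Isl1 had the fewest near it, 5 genes within 0.5, led by Cdh2 at 0.24, Ap3m1 at 0.37 and Ddc at 0.41. Gbx1 was nearest to Mlf1 at 0.06, Trib3 at 0.13 and Selenbp1 at 0.15, and Gbx2 to Camk2g at 0.13, Tnks at 0.25 and Kazn at 0.27. Slc18a3 was nearest to Krt18 at 0.13, Acbd7 at 0.18 and Mnd1 at 0.19. Ache had 302 genes within 0.5, led by Mthfsd at 0.14, Gprin1 at 0.17 and Ip6k1 at 0.17. With 4 libraries, such likeness describes levels and nothing more.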

How the data were processed

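The material was bulk RNA-seq, with 2 libraries of each line. The authors pseudoaligned the reads to a mouse transcriptome with kallisto 0.44.0, compared lines with sleuth, and deposited 1 TPM value per gene symbol and library. The submitters' processing notes name GRCm38. The transcriptome release, the use of strand and the way transcripts were combined into genes are not given in the sources used here.

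Groups and replicate numbers came from the labels. Files were joined on symbol, and 24 symbols that had been turned into dates were dropped. Genes reaching 1 TPM in 2 or more libraries were fitted on log2(TPM + 1) with limma 3.58.1 in R 4.3.3, without covariates, with Benjamini-Hochberg adjustment over all genes tested and a threshold of 0.05. Sleuth, which needs more than TPM, was not used here. The fit was checked on simulated data. Python 3.11.15 served for summaries (pandas 2.3.3, numpy 2.4.6) and plots (matplotlib 3.10.9). Gene positions came from GENCODE M21 and promoter stretches from RefSeq.

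The genes and lists were chosen with earlier results of these data known. Genes named from a list reached 1 TPM in a library and were at 0 in a library, did not overlap between the lines or had the 3 highest means, and others named were chosen after their values were seen. Results for items withheld for evaluation are not reported here. The alternatives were pseudocounts of 0.5 and 0.1, no filter, at least 1 TPM in every library, upper quartile, median-of-ratios and quantile scaling, the natural log of TPM + 0.5, a variance trend, the replicate number as a block, and each library left out in turn. Counts of genes not overlapping without N/D replicate 1 were added after the data were seen.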

Additional observations from a re-analysis of the deposited data

How the results depend on the processing

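Under the settings that kept all 4 libraries, each of the 6 tested genes kept its direction and none passed the threshold, with differences of 0.17 to 0.39 for Lhx8, 1.58 to 2.59 for Isl1, 0.68 to 2.61 for Gbx1, −1.34 to −1.05 for Gbx2, 0.35 to 1.83 for Slc18a3 and 0.0012 to 0.29 for Ache. The median over all tested genes, 0.26, became 0.14 with upper quartile scaling and −0.05 with quantile normalization, and the difference of Ache lay below it at the reported setting. The median difference over these settings was −0.43 to 0.17 for the receptors, below 0 with upper quartile and quantile scaling, and −0.44 to −0.12 for the accessory genes. Gbx1 and Slc18a3 gave no value when at least 1 TPM was required in every library. With a variance trend, limma called 5 genes higher and 1 lower instead of 0 and 0, none of them cholinergic. The count at an unadjusted p under 0.05 was 8 genes at the reported setting, 486 with upper quartile scaling, 377 with no filter, 224 with a variance trend, 72 with quantile normalization, 42 with at least 1 TPM in every library, 18 with a pseudocount of 0.1 and 15 with median-of-ratios scaling. Of the 8, 3 were higher and 5 lower, against 419 and 67 with upper quartile scaling. The cause of these shifts was not tested.

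Leaving out each library in turn gave 0 to 2213 genes higher and 0 to 160 lower, the larger numbers without N/D replicate 2. The differences ran from −0.64 to 1.40 for Lhx8, −0.17 to 4.66 for Isl1, −0.49 to 2.70 for Gbx1, −2.34 to 0.15 for Gbx2, −0.69 to 2.01 for Slc18a3 and −0.13 to 0.56 for Ache. Besides the 4 genes that turned without N/D replicate 1, Gbx2 turned to 0.15 and Slc18a3 to −0.55 without N/D/S replicate 2, and Ache to −0.014 when N/D replicate 2 and to −0.13 when N/D/S replicate 1 was left out. Without N/D replicate 1, 2 genes did not overlap between the lines (Lhx8 and Ache) instead of 0, and 5 instead of 4 did not overlap between the replicate numbers.

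Deviations from the line means correlated at 0.02 across genes between same-numbered libraries, so the number was not taken as pairing. With the replicate block, the difference of Lhx8 was 0.38 (SE 1.33), 0 genes passed the threshold and 9 had an unadjusted p under 0.05, and the block changed no call. Without read counts, a value of 0 has no limit of detection.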

Other observations

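Markers of other cells that use Isl1, Gbx2 or acetylcholine were uneven over the libraries. Of 7 markers of motor and brainstem cholinergic neurons, 2 passed the filter. Mnx1, which defines spinal motor neurons, was at 0 in N/D replicate 1 and N/D/S replicate 2 and at 0.139 TPM and 0.386 TPM in N/D replicate 2 and N/D/S replicate 1. The summed level of the 7 was 27.8 TPM in N/D replicate 1, nearly all of it Lhx4, and 4.67 to 13.7 TPM in the others.

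Of 7 markers of striatal projection neurons, in which Isl1 also acts, 5 were tested. Ebf1 was at 41.0 TPM and 45.4 TPM in the replicate 1 libraries and at 6.99 TPM and 2.31 TPM in those of replicate 2, for N/D and N/D/S in turn. It was the 1 of 5 lower in both replicate 2 libraries, against 14.8% of tested genes. Drd1 was the 1 of 5 higher in both, against 14.7%, and the other tested markers overlapped between the replicate numbers. Ikzf1, not tested and under 1 TPM in all 4 libraries, was also higher in both. Foxp1 was listed at 0 in N/D replicate 1 and was at 11.2 to 22.8 TPM in the others. The ratio of Isl1 to Ebf1 was 0.0307 in N/D replicate 1 and 3.33 to 9.04 in the others. The 4 thalamic markers, of a region where Gbx2 is also used, summed to 11.2 to 19.9 TPM, and Tcf7l2, the highest of them by mean, was at 16.9 TPM in N/D replicate 1 and 5.76 to 12.3 TPM in the others. The 6 progenitor markers summed to 83.4 TPM in N/D replicate 1 and 116 to 186 TPM in the others, and 4 of the 6 overlapped between the lines. Of the others, 1 was higher, against 8.69% of tested genes, and 1 lower, against 8.23%. Hes5 had N/D values of 0 and 22.6 TPM and higher N/D/S values of 61.8 TPM and 69.2 TPM (difference 3.77, unadjusted p = 0.0446, limma with Benjamini-Hochberg adjustment, adjusted p = 1.0). Top2a was at 24.3 TPM and 38.3 TPM in N/D and lower, at 17.3 TPM and 6.17 TPM, in N/D/S (difference −1.46, limma adjusted p = 1.0).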
